A study of Schmidtea mediterranea with 14 samples.

Results

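Planarian transcripts that mark stem cells and their epidermal descendants were followed through 14 RNA-seq libraries: *piwi-1* (dd_Smed_v6_659_0_1), *tgs-1* (dd_Smed_v6_10988_0_1) and *prog-1* (dd_Smed_v6_332_0_1). They were chosen by name, as cell state markers used in the study, and are 3 of the 28069 transcripts in the count table. All 3 reached 1 CPM (count scaled to library size) in 4 or more libraries, the requirement for testing, which 18436 transcripts met.

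The animals were asexual *Schmidtea mediterranea* of the clonal line CIW4, whole and uninjured. They were fed 3 times with liver containing double-stranded RNA (dsRNA) and starved for 7 days before RNA was extracted from pools of 5 to 6 animals. Control animals received *egfp* dsRNA, which matches no planarian gene (6 libraries), and the others received *apob-1* and *apob-2* dsRNA together, against the planarian orthologs of apolipoprotein B, the carrier protein of lipoproteins. The treated animals were then sorted by phenotype into *apob-M* (mild, 4 libraries) and *apob-S* (severe, 4 libraries). The study describes mild as modest or regional loss of pigment, and severe as loss over the whole animal with reduced motility. These groups were thus selected on their phenotype and not assigned. All animals belonged to 1 clone, and each library is a mixture of all cell types.

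Neoblasts are the dividing cells of the planarian body and the source of every new cell in the adult. *piwi-1* encodes a PIWI family protein and is transcribed in nearly all neoblasts, whereas *tgs-1* marks a smaller subpopulation regarded as more pluripotent, which also includes neoblasts specialised for neural fates. In the epidermal lineage, neoblasts leave the cell cycle, switch on *prog-1* as early progeny, lose it as late progeny, and finally integrate into the epidermis.

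The study's clone and primer records give part of each transcript, and the stretches below are shown to identify what was counted. Each is read 5′ to 3′ in the longest reading frame that is still open at the end of the 399 bases held, from its first start codon where an in-frame stop precedes it. For *piwi-1* the stretch is 300 bases of an expressed sequence tag clone, with no in-frame stop before it. For *tgs-1* the 264 bases begin at the start codon, and capitals mark the site of the first of the 2 cloning primers. For *prog-1* the 144 bases begin at the start codon, in capitals. No other transcript of the same 3 assembly components was in the count table.

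piwi-1: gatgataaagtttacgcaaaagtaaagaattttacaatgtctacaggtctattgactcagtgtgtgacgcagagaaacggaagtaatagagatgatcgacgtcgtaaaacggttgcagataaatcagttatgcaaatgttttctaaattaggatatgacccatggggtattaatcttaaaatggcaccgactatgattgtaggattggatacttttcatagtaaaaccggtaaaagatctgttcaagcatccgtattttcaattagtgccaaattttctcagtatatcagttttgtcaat
tgs-1: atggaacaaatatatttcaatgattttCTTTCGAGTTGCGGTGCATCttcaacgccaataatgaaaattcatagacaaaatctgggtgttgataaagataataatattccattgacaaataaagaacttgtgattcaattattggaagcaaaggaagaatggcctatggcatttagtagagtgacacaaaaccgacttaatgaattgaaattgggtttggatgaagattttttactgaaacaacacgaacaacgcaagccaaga
prog-1: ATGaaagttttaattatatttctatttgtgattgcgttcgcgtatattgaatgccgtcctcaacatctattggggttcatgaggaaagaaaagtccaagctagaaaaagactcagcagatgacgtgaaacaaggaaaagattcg

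Libraries held between 16839133 and 23039326 counts. One transcript, dd_Smed_v6_4_1_1, took 7.28% of the counts of *apob-M* replicate 3 and 5.36% of those of *apob-S* replicate 2, against at most 2.43% elsewhere. Results on the markers are therefore also given without these 2 libraries where that changed them. Controls were uneven too: the same transcript took 2.43% and 2.05% in replicates 1 and 2, and between 0.109% and 0.183% in replicates 3 to 6. The targeted transcripts fell in both treated groups: *apob-1* from 1414 ± 184 normalized CPM (SD, n = 6) in controls to 266.8 ± 32.8 in *apob-M* and 288 ± 41.6 in *apob-S* (SD, n = 4 each), and *apob-2* from 1187 ± 260 to 439 ± 89.6 and 374 ± 111.

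In control animals *prog-1* had the highest level per length of the 3 markers and *tgs-1* the lowest. Mean levels in RPKM (normalized CPM per kilobase of transcript) were 299 ± 21.6 for *prog-1*, 154 ± 2.61 for *piwi-1* and 3.89 ± 0.65 for *tgs-1* (SD, n = 6), over transcript lengths of 963, 2618 and 1693 bases. On this scale *prog-1* stood at the 97.8th percentile of the 18436 transcripts, *piwi-1* at the 95.8th and *tgs-1* at the 26.2nd. The low level of *tgs-1* sets its precision: its counts ran from 98 (95% Poisson interval 79.6 to 119, counting error only) to 237 (208 to 269) per library, whereas *piwi-1* counts ran from 7099 to 9849 and *prog-1* counts from 2923 to 6496. Counting alone gives *tgs-1* a coefficient of variation of 8.70% in controls, against 16.7% observed.

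The question for *piwi-1* was whether the level of the general neoblast marker moved with *apob* knockdown, and its differences were small in all 3 comparisons. Across the 6 control libraries *piwi-1* was lowest at 396, at a median of 403 and highest at 415 CPM after normalization by the trimmed mean of M-values (TMM). The 4 *apob-M* libraries had 414, 377, 430 and 413 normalized CPM, and the 4 *apob-S* libraries had 434, 416, 435 and 431. The *apob-M* libraries lay on both sides of the control range, with replicate 2 below it and replicate 3 above it, while every *apob-S* library lay above the highest control, replicate 2 only just. Groups without overlap, in either direction, were found for 12.5% of all transcripts when *apob-M* was set against controls and for 22.1% with *apob-S*.

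By edgeR's quasi-likelihood test, *piwi-1* was 1.06-fold higher in *apob-S* than in controls (95% interval 1.01 to 1.12), which missed the threshold after Benjamini-Hochberg adjustment over all transcripts (log2 fold change 0.09 ± 0.03 (SE), adjusted p = 0.0623). The exact permutation test of log2 CPM gave p = 0.00952 (two-sided), the smallest that 6 libraries against 4 can give. This call depended on the tool, since DESeq2 gave an adjusted p of 0.0324, limma-voom 0.0424 and edgeR's exact test 0.404 for a fold change of nearly the same size. In *apob-M* the difference was 1.01-fold (95% interval 0.963 to 1.06, quasi-likelihood adjusted p = 0.798), and its sign turned without *apob-M* replicate 3 (log2 fold change -0.0036). Between *apob-S* and *apob-M* it was 1.05-fold (95% interval 0.994 to 1.11, quasi-likelihood adjusted p = 0.266). Higher calls made up 5.17% of transcripts in that comparison, 15.8% had no overlap in either direction, and 7.04% had every *apob-S* library above every *apob-M* library.

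*tgs-1* was higher in both treated groups. Its level was lowest at 5.19, at a median of 6.68 and highest at 8.39 normalized CPM across the 6 control libraries. The *apob-M* libraries had 12.5, 10.2, 9.83 and 9.66 normalized CPM and the *apob-S* libraries had 10.4, 10.2, 11.0 and 9.62. All 8 treated libraries lay above every control, and the treated groups overlapped each other.

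*tgs-1* rose 1.60-fold in *apob-M* (95% interval 1.36 to 1.88, edgeR quasi-likelihood adjusted p = 0.000266) and 1.56-fold in *apob-S* (1.33 to 1.83, adjusted p = 0.000156). Of all transcripts tested, 15.3% passed the threshold in *apob-M* and 29.3% in *apob-S*, in either direction. The higher calls were 7.05% and 13.5% of transcripts, and 6.09% and 10.4% had every treated library above every control. The log2 fold changes of *tgs-1*, 0.68 ± 0.11 and 0.64 ± 0.11 (SE), stood at the 99.2nd and 97.9th percentiles of all transcripts in their comparisons. Both comparisons used the same 6 controls, and their values are not independent. Between *apob-S* and *apob-M* the ratio was 0.978, with a 95% interval of 0.827 to 1.16 (quasi-likelihood adjusted p = 0.911), which leaves room for a difference in either direction. In whole animals, more cells of a type and more RNA per cell cannot be told apart, and the same holds for the falls below.

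*prog-1* was lower in treated animals, and in a graded order, with *apob-S* below *apob-M* and *apob-M* below controls. The 6 controls had a lowest value of 269, a median of 278 and a highest of 321 normalized CPM. The *apob-M* libraries had 244, 251, 266.8 and 225 normalized CPM, and the *apob-S* libraries 155, 191, 168 and 171. The 3 groups did not overlap, although the highest *apob-M* library, replicate 3, was close to the lowest control.

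In *apob-S*, *prog-1* was at 0.596 of the control level (95% interval 0.544 to 0.654), a log2 fold change of -0.75 ± 0.06 (SE) with an edgeR quasi-likelihood adjusted p of 3.19e-08. Lower calls made up 15.7% of transcripts in that comparison, and 11.7% of transcripts had every *apob-S* library below every control. Its fold change was at the 1.74th percentile of all transcripts. Against *apob-M*, *apob-S* was at 0.695 (0.630 to 0.767, quasi-likelihood adjusted p = 4.28e-05), where 6.86% of transcripts were called lower and 8.73% had no overlap in that direction. This comparison uses no control mean, although all groups share 1 estimate of the spread.

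The fall of *prog-1* in *apob-M* was smaller and less secure. The level was 0.858 of control (95% interval 0.784 to 0.939) with a log2 fold change of -0.22 ± 0.06 (SE) and an edgeR quasi-likelihood adjusted p of 0.0202, beside 8.24% of transcripts called lower and 6.44% with no overlap in that direction. The call was lost with edgeR's exact test (adjusted p = 0.0789), and in the quasi-likelihood test without *apob-M* replicate 1 (adjusted p = 0.0542) or replicate 4 (adjusted p = 0.0851). It was kept without the 2 libraries rich in dd_Smed_v6_4_1_1, at a log2 fold change of -0.26 (quasi-likelihood adjusted p = 0.00683). The exact permutation test gave p = 0.00952 for *prog-1* in each treated group against controls, and 0.0286 between the treated groups, each the smallest that its group sizes allow.

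**Figure D1:**
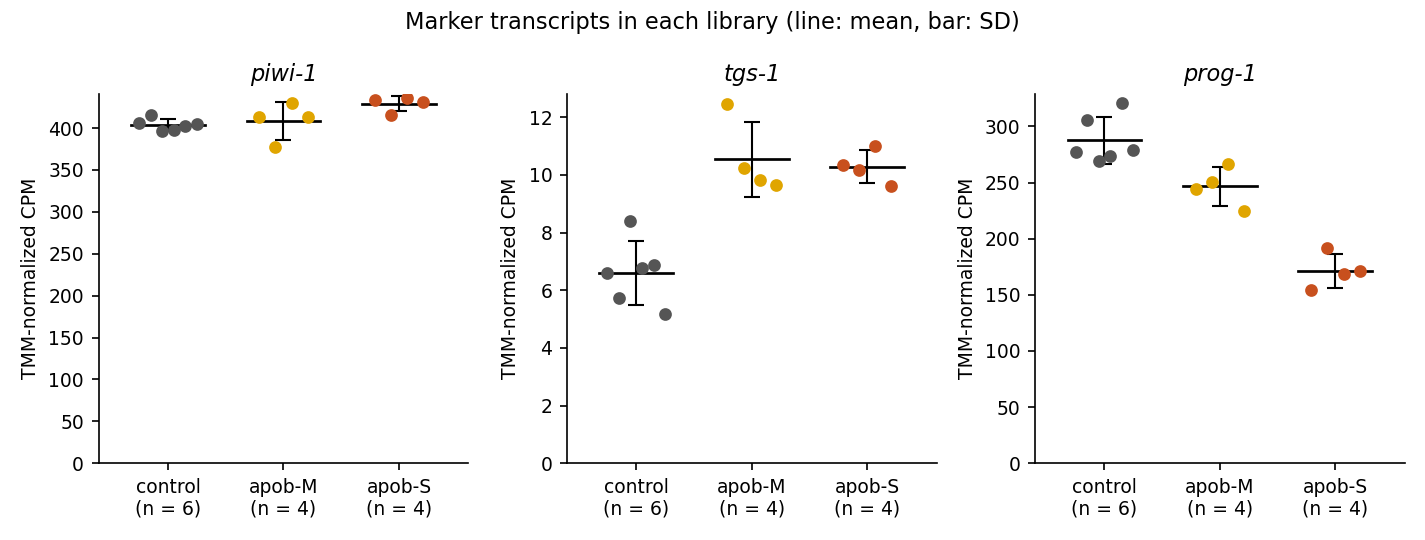
TMM-normalized CPM (y axis, from 0) of *piwi-1*, *tgs-1* and *prog-1* in each library (points) of the control (n = 6), *apob-M* (n = 4) and *apob-S* (n = 4) groups, with the group mean (line) and SD (bar). *piwi-1* means lie between 404 and 429, *tgs-1* is above every control in all 8 treated libraries, and *prog-1* steps down from 287 to 247 to 171.

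**Figure D2:**
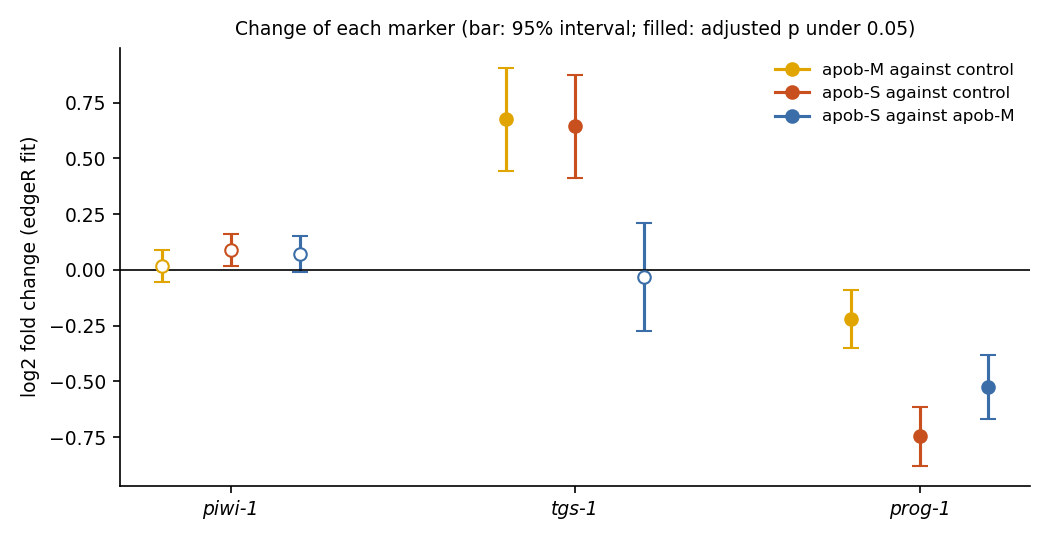
Log2 fold change (y axis) of each marker in the 3 comparisons from the edgeR quasi-likelihood fit, with 95% intervals as bars and filled points where the adjusted p was under 0.05. *tgs-1* is filled and above 0 against controls only, *prog-1* is filled and below 0 in all 3 comparisons, and *piwi-1* is filled in none.

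The markers could also be set against one another inside each library, which removes library size and the normalization factor. These ratios are of normalized CPM and not per length, so only their differences between groups are read. The ratio of *prog-1* to *piwi-1* was lowest at 0.679, at a median of 0.688 and highest at 0.798 in controls. It was 0.591, 0.665, 0.620 and 0.545 in the *apob-M* libraries and 0.356, 0.460, 0.387 and 0.398 in the *apob-S* libraries. The 3 groups were fully separated, and on the log2 scale *apob-M* differed from controls by -0.24 and *apob-S* by -0.84, with -0.60 between *apob-S* and *apob-M*.

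Relative to *piwi-1*, *tgs-1* was higher in treated animals. The ratio of *tgs-1* to *piwi-1* ran from 0.0128 to 0.0212 over the controls, with a median of 0.0166. It was 0.0301, 0.0271, 0.0228 and 0.0234 in *apob-M* and 0.0239, 0.0245, 0.0253 and 0.0223 in *apob-S*. Every treated library was above every control, by 0.67 on the log2 scale in *apob-M* and 0.57 in *apob-S*, and the treated groups overlapped, with a difference of -0.10 (exact permutation p = 0.371).

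Against controls, the largest log2 differences were in the ratio of the 2 markers that moved in opposite directions. The ratio of *prog-1* to *tgs-1* had a lowest value of 32.1, a median of 44.4 and a highest of 53.7 in controls. It was 19.6, 24.5, 27.1 and 23.3 in *apob-M* and 14.9, 18.8, 15.3 and 17.8 in *apob-S*. The mean log2 ratio fell by 0.91 in *apob-M* and by 1.40 in *apob-S* relative to controls, and by 0.50 from *apob-M* to *apob-S*. In these 9 ratio tests, adjusted together, the 6 comparisons with controls each had an exact permutation p of 0.00952 (adjusted 0.0143), and the 2 ratios with *prog-1* had 0.0286 (adjusted 0.0321) between *apob-S* and *apob-M*. Some of these outcomes were fixed by the marker levels, which already lay on opposite sides of every control. They are *prog-1* to *tgs-1* in both treated groups, and *prog-1* to *piwi-1* in *apob-S*, against controls. Their p-values add nothing to those of the single markers.

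**Figure D3:**
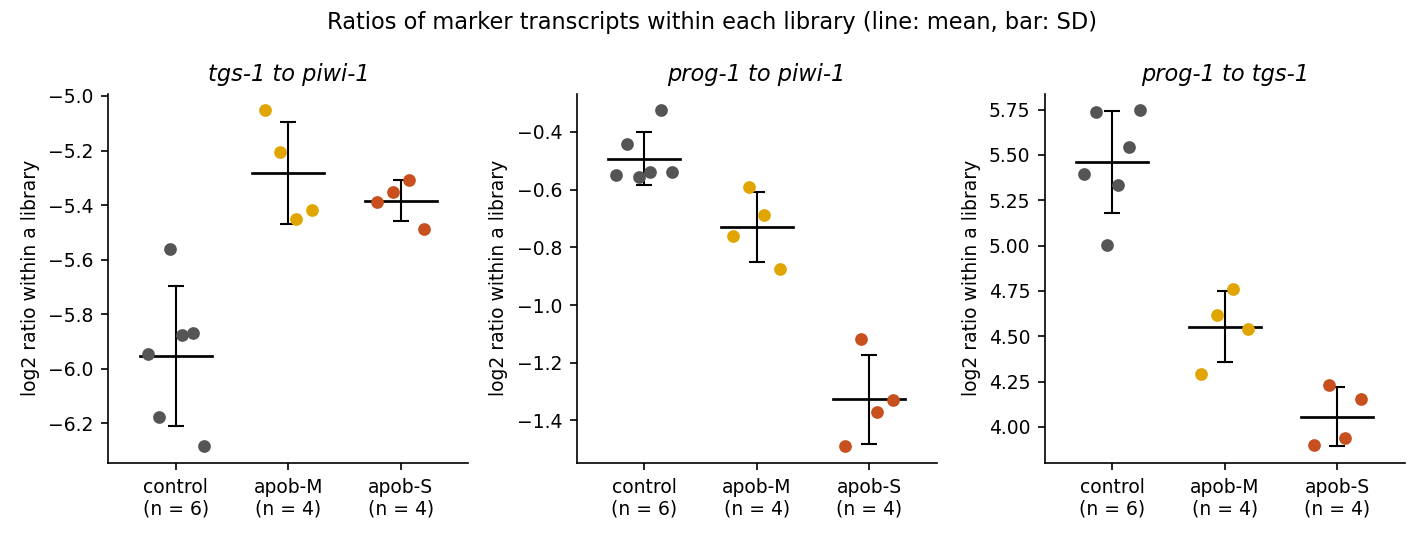
Log2 ratio of normalized CPM within each library (y axis, axes not from 0) for *tgs-1* to *piwi-1*, *prog-1* to *piwi-1* and *prog-1* to *tgs-1*, by group, with means (lines) and SDs (bars). Both ratios with *prog-1* step down from control to *apob-M* to *apob-S* without overlap, with mean log2 ratios to *tgs-1* of 5.46, 4.55 and 4.06, while *tgs-1* to *piwi-1* is higher in both treated groups.

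Within groups the markers showed little shared variation. After removal of group means, Pearson's r over the 14 libraries was -0.18 for *tgs-1* and *piwi-1*, -0.01 for *prog-1* and *piwi-1* and -0.15 for *prog-1* and *tgs-1*. These are descriptions over libraries that share their normalization. Counting error also weakens such r values. In controls, counting alone gives a coefficient of variation of 8.70% for *tgs-1* (16.7% observed) and 1.11% for *piwi-1* (1.69% observed).

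The transcripts most like each marker were the 4 with the highest Pearson r of log2 CPM over all 14 libraries, among 13393 whose mean log2 CPM reached 2. Those nearest *prog-1* were dd_Smed_v6_478_0_1 (r = 0.99), dd_Smed_v6_3572_0_1 (r = 0.98), dd_Smed_v6_15865_0_1 (r = 0.98) and dd_Smed_v6_468_0_1 (r = 0.97), none with a human best hit in the tables used. The likeness of dd_Smed_v6_478_0_1 remained at 0.92 within groups, and its level was 228 ± 18.5 normalized CPM in controls, 202 ± 17.3 in *apob-M* and 144 ± 10.3 in *apob-S*. Those nearest *tgs-1* had r between 0.92 and 0.94. The first of them, dd_Smed_v6_9149_0_1, went from 46.4 ± 5.55 normalized CPM in controls to 81.8 ± 3.91 (*apob-M*) and 85.4 ± 1.91 (*apob-S*), with r = 0.72 within groups. Another, dd_Smed_v6_12641_0_1, has CRISPLD1, a secreted protein of the cysteine-rich family, as its best human hit, and went from 3.24 ± 0.29 to 6.03 ± 0.84 and 6.56 ± 0.54 normalized CPM. Those nearest *piwi-1* had lower r, between 0.87 and 0.89. All 4 passed the threshold as higher in *apob-S* alone against controls, beside 13.5% of all transcripts. Only 1 of them was called higher in *apob-S* than in *apob-M*, beside 5.17% of all transcripts. The first of the 4, dd_Smed_v6_12847_0_1 (r = 0.85 within groups), had 8.85 ± 0.56, 9.77 ± 1.03 and 11.4 ± 0.84 normalized CPM. All the transcripts named here as alike were picked for their profile over the same libraries. Their levels and calls follow in part from that choice and are descriptions.

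How the markers compare with related transcripts was described with lists, as counts and medians without a test of the list. The neoblast-enriched list is the top of the study's ranking of transcripts by their ratio in sorted dividing neoblasts to sorted differentiated cells from other animals; 971 transcripts were held, 794 were tested, and both *piwi-1* and *tgs-1* are among them. In *apob-M* animals, 29 of the 794 were higher (3.65%) and 43 lower (5.42%), both below the 7.05% and 8.24% of all transcripts tested. The list's median log2 fold change there was -0.04 beside 0.00 for all transcripts. In *apob-S*, 84 were higher (10.6%) and 56 lower (7.05%), again below the shares of all transcripts, 13.5% and 15.7%, with a median of 0.04 beside 0.00. *piwi-1* was near the middle of this list, with 302 and 330 of the 794 above it, while 4 of the list in *apob-M* and 11 in *apob-S* had a larger fold change than *tgs-1*.

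The largest increase with a human best hit in the list was dd_Smed_v6_3383_0_1, a homolog of the small GTPase ARF1, which had 21.1 ± 2.44 normalized CPM in controls, 270 ± 40.1 in *apob-M* and 178 ± 12.8 in *apob-S*. Among those that fell, dd_Smed_v6_2875_0_1, a homolog of the core binding factor subunit CBFB, went from 30.0 ± 1.37 to 20.3 ± 2.29 and 17.1 ± 0.58 normalized CPM. The others named by the same rule rose less in *apob-M* (homologs of DUT and MRE11, log2 fold changes 0.31 and 0.31) and more in *apob-S* (AKR1B10 and TRAF3, 1.26 and 0.84). The other falls were of PI15 and TDG homologs in *apob-M* (-0.63 and -0.55) and of PCBP4 and DAW1 homologs in *apob-S* (-0.87 and -0.65). The PCBP4 homolog had a median of 1.10 normalized CPM in controls, and at most 0.841 in *apob-M* and 0.792 in *apob-S*. It thus met the requirement for testing only through controls, where it was higher. Its counts were 16 to 28 per control library and 5 to 17 in *apob-S*, so its fall is not secure.

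**Figure D4:**
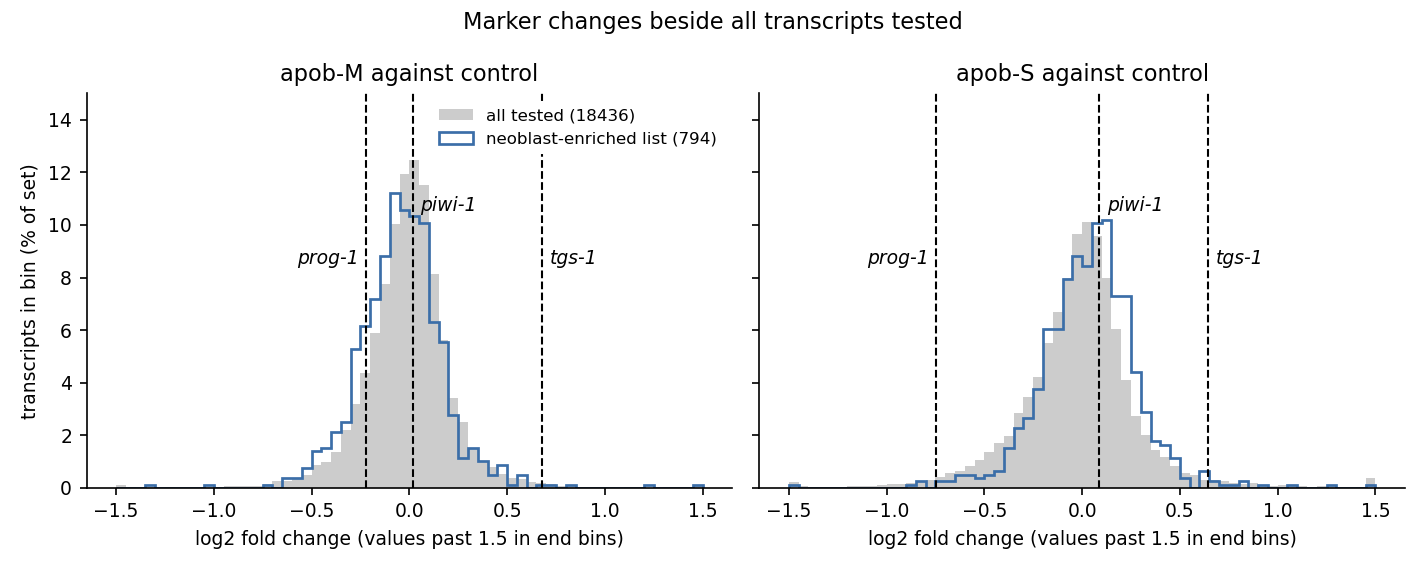
Distribution of log2 fold changes (x axis, values past 1.5 placed in the end bins) over all 18436 transcripts tested (grey) and the 794 tested transcripts of the neoblast-enriched list (blue outline), as the percent of each set per bin (y axis), for *apob-M* and *apob-S* against controls. Dashed lines mark the markers: *piwi-1* sits in the centre of both, *tgs-1* in the upper tail of both, and *prog-1* moves from -0.22 in *apob-M* to -0.75 in *apob-S*.

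Transcripts with homology to germ granule and germline proteins, which planarian neoblasts share with germ cells, rose in part, by small factors. Of the 9 tested, *piwi-1* included, 3 rose and 1 fell in *apob-M*, and 3 rose and none fell in *apob-S*. Over all transcripts the higher and lower calls were 7.05% and 8.24% in the first comparison and 13.5% and 15.7% in the second. The 3 that rose were the same in both groups: dd_Smed_v6_1985_0_1 and dd_Smed_v6_2082_0_1, homologs of the RNA helicase DDX4, and dd_Smed_v6_8688_0_1, a homolog of the arginine methyltransferase PRMT5. In *apob-S* they were 1.15-fold, 1.17-fold and 1.18-fold above controls. A CELF3 homolog, dd_Smed_v6_2592_0_1, was the one that fell in *apob-M*, to 0.900 of control. The counts in *apob-M* were 0 in both directions with edgeR's exact test.

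Transcripts homologous to replication and chromatin assembly factors, which are active in dividing cells and thus in neoblasts, rose in part. Of 14 tested, all of them also in the neoblast-enriched list, 4 rose in *apob-M* and 8 in *apob-S*, and none fell in either, beside 7.05% and 13.5% of all transcripts called higher. Several of the 14 share the best hit RBBP4, so the count is of transcripts and not of different factors. The median log2 fold changes were 0.10 and 0.19, beside 0.00 for all transcripts in each. The MCM7 homolog dd_Smed_v6_4712_0_1, a subunit of the replicative helicase, had 43.6 ± 1.08 normalized CPM in controls, 50.0 ± 3.76 in *apob-M* and 57.2 ± 3.51 in *apob-S*. The homolog of the sliding clamp PCNA, dd_Smed_v6_1920_0_1, was 1.26-fold higher in *apob-S*. The 6 not called in *apob-S* included homologs of RRM1 (0.990 of control) and MCM3 (1.05-fold). In comparison, *piwi-1* was exceeded by 12 of these 14 in *apob-M* and by 9 in *apob-S*.

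Homologs of gene families known from the planarian epidermal lineage did not share 1 direction. None of the 6 tested passed the threshold in *apob-M*, while in *apob-S* 3 rose and 2 fell, beside 13.5% of all transcripts called higher and 15.7% lower. Only 1 of the 6 was also in the neoblast-enriched list. Best hits of the others came from the study's lists of transcripts changed by RNAi, which include changes in these libraries. The counts were shaped by that selection and cannot be measured against the shares of all transcripts. With edgeR's exact test or a filter at 5 CPM, 1 of the 6 was called higher in *apob-M*. By the quasi-likelihood test the EGR4 homolog dd_Smed_v6_9273_0_1 was 1.43-fold higher and just missed the threshold there (edgeR adjusted p = 0.0522). The 2 homologs of the transcription factor EGR4 rose 2.46-fold (dd_Smed_v6_9273_0_1, from 3.87 ± 0.87 to 9.54 ± 2.49 normalized CPM) and 1.97-fold (dd_Smed_v6_7731_0_1), and the homolog of the amidinotransferase GATM, dd_Smed_v6_11843_0_1, rose 1.38-fold. The intermediate filament homologs LMNB2 (dd_Smed_v6_503_0_1) and LMNA (dd_Smed_v6_10248_0_1) fell to 0.594 and 0.739 of control, beside 0.596 for *prog-1*. Another LMNA homolog, dd_Smed_v6_6732_0_1, went the other way, at 1.09-fold in *apob-S*, and missed the threshold (edgeR quasi-likelihood adjusted p = 0.0914). The assignment of these homologs to epidermal cells rests on gene family and not on these libraries.

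**Figure D5:**
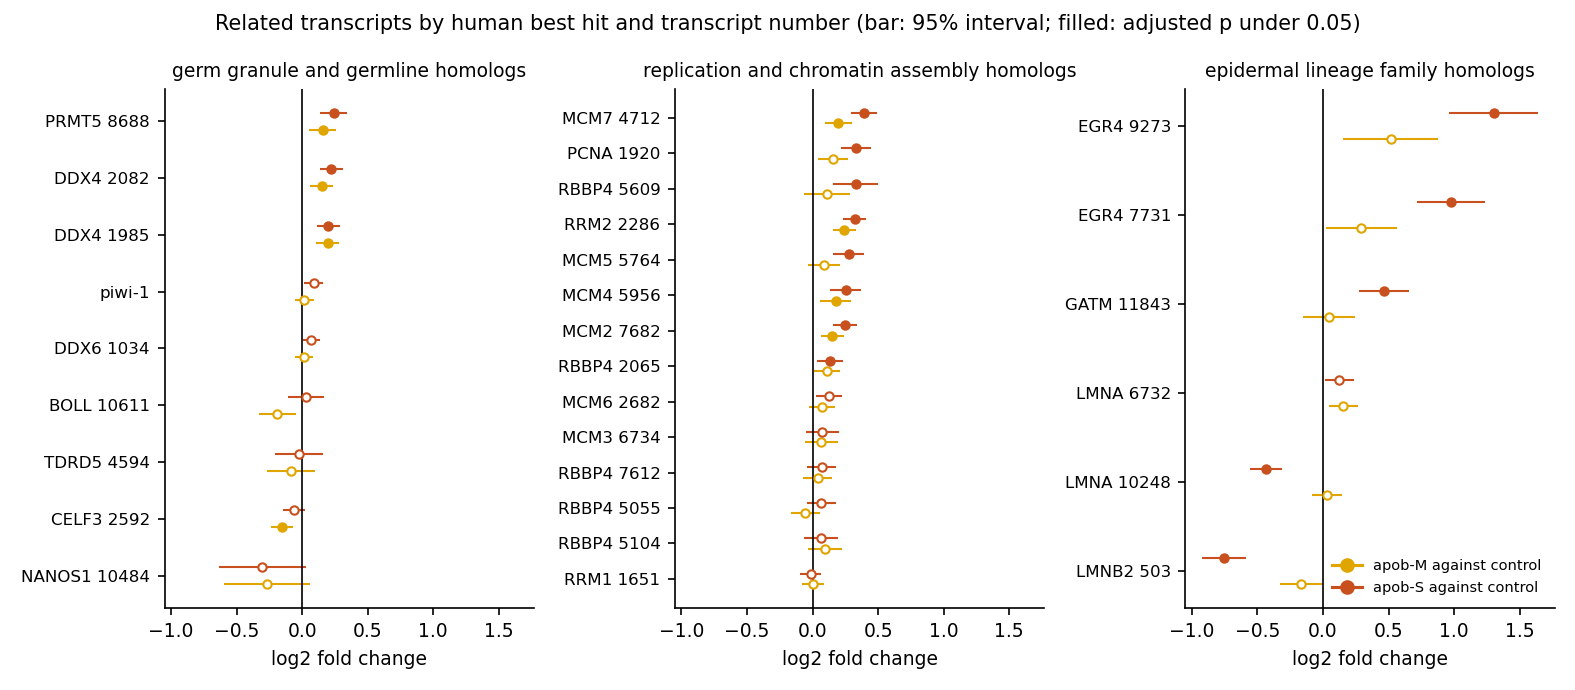
Log2 fold change (x axis) of each tested transcript of the 3 homolog lists (rows, by human best hit and transcript number) in *apob-M* and *apob-S* against controls, with 95% intervals as bars and filled points where the adjusted p was under 0.05. In *apob-S*, 8 of 14 replication and chromatin assembly homologs are filled and above 0, and the epidermal family holds 3 filled points above and 2 below, where 13.5% of all transcripts were called higher and 15.7% lower. The epidermal family list was drawn in part from transcripts that the study had listed as changed by RNAi, which shapes its counts.

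Markers of other tissues were read alongside. The intestine marker *ctsla* differed by less than its spread, at 1844 ± 83.3 normalized CPM in controls, 1846 ± 142 in *apob-M* and 1804 ± 130 in *apob-S*. The pharynx marker *laminin* fell in the same order as *prog-1*, from 60.8 ± 8.43 to 45.0 ± 5.94 and 31.2 ± 0.92 normalized CPM. The neuron marker *ChAT* had 88.4 ± 6.90, 103 ± 8.24 and 91.0 ± 2.63 normalized CPM, and was called higher in *apob-M* (edgeR quasi-likelihood adjusted p = 0.0123). Whether the fall in *laminin* had a part in the values of *prog-1*, or the rise in *ChAT* in those of *tgs-1*, was not tested.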

How the data were processed

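The authors trimmed paired reads with BBDuk, aligned them with Bowtie2 2.3.1 to unique dd_Smed_v6 transcripts, allowing several matches per read, and counted them with featureCounts (Subread 1.6.3), so that a read matching several transcripts counted on each. Levels of transcripts with near-identical copies are therefore uncertain. The counts were deposited by the authors as raw values, for 14 libraries with 16839133 to 23039326 counts each. A second deposited table holds their own log2 fold changes, mean log2 CPM and false discovery rates and was not used.

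Here transcripts that reached 1 CPM in 4 or more libraries were analysed with edgeR 4.0.16 in R 4.3.3 (TMM, quasi-likelihood test, all 14 libraries, group as the only term, Benjamini-Hochberg adjustment, threshold 0.05). Normalized CPM is scaled to the TMM library size, and log2 CPM has a prior count of 2. Permutation tests were exact and two-sided, with smallest p-values of 0.00952 (6 against 4) and 0.0286 (4 against 4). Alternatives used edgeR's exact test, DESeq2 1.42.0, limma 3.58.1 (voom), other scaling and filters, the replicate number as a block, and each library left out. Leaving out the 2 libraries richest in dd_Smed_v6_4_1_1 was added after seeing the data. The scripts were tested on simulated data.

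The markers and lists were chosen with earlier results of these data known. Named transcripts were the markers, the 4 most alike each, all homologs in the 3 lists, and, in the neoblast-enriched list, the 3 largest rises and 3 largest falls with a human best hit past the threshold, against controls. Best hits came from partly held tables, covering 1993 transcripts. These include the study's lists of transcripts changed in these libraries, so homologs in the lists were not all chosen independently of their change. Libraries were pools of 5 to 6 animals described as biological replicates. No genome was used, so no coordinates are given.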

Additional observations from a re-analysis of the deposited data

Results flagged for a closer look

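None of the 3 markers and none of their ratios held a library that stood apart from its group. Among 183 groups of 4 or 6 libraries checked for a value far from the others, 10 did, and chance flags about 1 in 20 groups. In controls, replicate 2 stood above the others for the RRM2 homolog (38.8 normalized CPM, others 35.5 to 36.2) and for dd_Smed_v6_12847_0_1, a transcript alike *piwi-1* (9.94, others 8.49 to 8.96), and replicate 3 stood below them for the MCM5 homolog (24.3, others 27.6 to 28.9). In *apob-M*, replicate 2 stood apart for 3 transcripts, low for the MCM3 homolog (29.6, others 37.3 to 37.9) and high for the LMNB2 homolog (201, others 167 to 169) and dd_Smed_v6_3572_0_1, a transcript alike *prog-1* (59.2, others 55.0 to 55.7). This library also had the lowest *piwi-1* level of all 14. Replicate 1 of *apob-M* stood below the others for *laminin* (36.1, others 47.9 to 48.1). In *apob-S* the values that stood apart were those of the BOLL homolog in replicate 3 (14.3, others 16.0 to 16.4), an EGR4 homolog in replicate 1 (13.2, others 8.03 to 8.86) and the AKR1B10 homolog in replicate 2 (7.48, others 9.62 to 9.87).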

How the results depend on the processing

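The rise of *tgs-1* in both treated groups and the fall of *prog-1* in *apob-S*, against controls and against *apob-M*, passed the threshold under all 25 alternatives. The fall of *prog-1* in *apob-M* missed it with edgeR's exact test (log2 fold change -0.22) and in some fits leaving out 1 library (range -0.26 to -0.18). *piwi-1* in *apob-S* against controls passed it with DESeq2 (0.0929), limma-voom (0.0884), a filter at 5 CPM (0.0874), the 2 compared groups alone (0.0882), the 2 libraries richest in dd_Smed_v6_4_1_1 left out (0.103) and some fits leaving out 1 library (range 0.0821 to 0.11), and its permutation test by library size alone did not (0.0771, exact permutation p = 0.0667). The sign of *piwi-1* in *apob-M* against controls turned without those 2 libraries (-0.0094) and without *apob-M* replicate 3 (range over left-out libraries -0.0036 to 0.0526), and that of *tgs-1* in *apob-S* against *apob-M* turned without *apob-M* replicate 1 (range -0.0710 to 0.0565). With 1 treated library left out, the smallest exact permutation p between the treated groups is 0.0571, so that the ratios of *prog-1* to *piwi-1* (range -0.67 to -0.54) and to *tgs-1* (range -0.58 to -0.43) could not pass there. Library size alone gave 864 transcripts higher and 931 lower in *apob-M* (1299 and 1520 with TMM), and 583 higher in *apob-S* against *apob-M* (954 with TMM). The cause of these changes was not tested.

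Same-numbered libraries did not deviate together (r between -0.20 and 0.13), so no pairing by number was seen. With so few libraries per group, this check cannot exclude one. With the replicate number as a block, log2 fold changes against controls were 0.62 and 0.58 for *tgs-1* and -0.19 and -0.72 for *prog-1* in *apob-M* and *apob-S*, no call on the 3 markers changed, and 955 and 1147 transcripts were higher and lower in *apob-M*. Depth limits *tgs-1* most, at 98 to 237 counts per library.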
